A study of Mus musculus with 12 samples.

Results

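The ubiquitin-conjugating enzymes (E2s, symbols beginning Ube2) and the ubiquitin-specific protease family of deubiquitinases (symbols beginning Usp and a digit) were examined in murine bone marrow-derived macrophages (BMDMs). The members were every row of the deposited gene table with such a symbol, with 1 further matching symbol left out, which gave 33 Ube2 and 45 Usp members, 78 of the 12960 genes listed. Of these, 32 Ube2 and 43 Usp members passed the filter on low counts that left 10822 genes for testing. The BMDMs were grown from the marrow of wild type (WT) mice and of AMPKβ1-/- mice, which lack the β1 regulatory subunit of AMP-activated protein kinase encoded by *Prkab1*. They differentiated in medium conditioned by L929 cells, a source of M-CSF, and then received 0.1% DMSO (vehicle) or 10 µM PF-06409577, an activator selective for AMPK complexes that hold β1, for 6 h. There were 3 libraries in each of the 4 groups, WT with vehicle, WT with PF-06409577, AMPKβ1-/- with vehicle and AMPKβ1-/- with PF-06409577. The AMPKβ1-/- mice lack the subunit in the whole body and not in myeloid cells alone. Nothing in the labels says that the 3 libraries of a group came from separate mice or cultures, so the p-values measure the spread between libraries, which may be technical.

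Ubiquitin is attached to a protein by a relay. An E1 enzyme activates it, an E2 carries it on a cysteine, and an E3 ligase brings the loaded E2 to the substrate. The E2 often decides which linkage a chain has: *Ube2n* with *Ube2v1* or *Ube2v2* builds the K63-linked chains used in inflammatory signalling, while *Ube2k*, *Ube2r2* and the *Ube2g* pair build the K48-linked chains that mark proteins for the proteasome. A few E2s carry relatives of ubiquitin instead: *Ube2m* and *Ube2f* carry NEDD8, and *Ube2l6* carries ISG15. The USPs are cysteine proteases that cut ubiquitin from substrates or take chains apart, and they are the most numerous deubiquitinases in mammals.

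The libraries held from 8935609 to 14358180 counts each. *Prkab1* was counted at 43.4, 44.2 and 45.3 CPM (counts scaled to a common library size with TMM factors) in WT with vehicle and at 41.9, 37.3 and 37.7 with PF-06409577. In the AMPKβ1-/- libraries it stood at 8.39, 7.70 and 6.05 with vehicle and at 9.41, 9.42 and 7.90 with PF-06409577, so every library matched its genotype label. All 7 macrophage markers looked for were present, summing to between 24383 and 28492 CPM, and the 4 granulocyte markers listed summed to at most 0.958 CPM in any library. The 5 fibroblast markers summed to 0.923 to 1.89 CPM in WT with vehicle and 2.02 to 8.66 CPM in AMPKβ1-/- with vehicle, and their part in the results was not tested. The relation of the counts to base composition differed from library to library. For each 10 points of GC content, a gene's log2 CPM relative to its mean over the libraries changed by 0.72, 0.36 and 0.53 in WT with vehicle, by 0.37, 0.17 and -0.05 in WT with PF-06409577, by -0.10, -0.36 and -0.34 in AMPKβ1-/- with vehicle and by -0.51, -0.33 and -0.44 in AMPKβ1-/- with PF-06409577. This slope separated the genotypes without overlap, and genotype and slope cannot be told apart by design. Results are therefore given both as fitted to the counts and with an offset that removes each library's trend in GC content and transcript length.

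This relation can be shown on pairs of related members, whose proteins share long stretches that the genes write with different bases. The following stretches of coding sequence (GENCODE M21, GRCm38) are shown for the 4 pairs whose members were called in opposite directions between genotypes, a choice made after the values were seen. Each is the first in-frame window of 60 bases with the most shared residues in the alignment of the pair's proteins, 5′ to 3′ on the coding strand, and capitals mark the bases that differ between the relatives. *Ube2v1* lies at chr2:167607638-167632095 and *Ube2v2* at chr16:15552077-15595773, both on the minus strand, and their proteins are 85.5% identical.
Ube2v1: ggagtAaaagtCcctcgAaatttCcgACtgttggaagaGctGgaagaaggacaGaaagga
Ube2v2: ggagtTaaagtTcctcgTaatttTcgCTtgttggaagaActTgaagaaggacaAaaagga
These windows code for 20 shared residues of 20, differ at 9 bases and hold 28 G or C bases in *Ube2v1* against 23 in *Ube2v2*. *Ube2q1* (chr3:89773616-89784000, plus strand) and *Ube2q2* (chr9:55148854-55207529, plus strand), a pair of larger E2s with an added amino-terminal region, are 74.9% identical.
Ube2q1: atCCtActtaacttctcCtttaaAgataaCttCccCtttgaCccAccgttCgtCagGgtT
Ube2q2: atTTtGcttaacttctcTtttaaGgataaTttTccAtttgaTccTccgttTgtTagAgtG
Here too all 20 residues are shared, with 14 differing bases and 26 against 19 G or C bases. *Usp4* (chr9:108347853-108392545, plus strand) and *Usp15* (chr10:123105006-123196995, minus strand), whose products act on TGF-β and Wnt signalling proteins, are 59.0% identical.
Usp4: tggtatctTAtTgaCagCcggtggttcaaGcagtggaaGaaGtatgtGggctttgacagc
Usp15: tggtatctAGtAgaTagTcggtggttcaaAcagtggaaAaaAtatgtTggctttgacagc
The windows share 19 of 20 residues and hold 29 against 24 G or C bases. *Usp20* (chr2:30982279-31023586, plus strand) and *Usp33* (chr3:152346478-152393617, plus strand), which share receptor and hypoxia pathway substrates, are 60.2% identical.
Usp20: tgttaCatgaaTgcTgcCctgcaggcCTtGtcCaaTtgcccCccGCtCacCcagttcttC
Usp33: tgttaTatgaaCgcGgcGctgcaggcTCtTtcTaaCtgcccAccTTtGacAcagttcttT
These hold 34 against 29 G or C bases over 20 shared residues. Over the whole coding sequence, the GC content of the pairs was 52.0% and 40.5% for *Ube2v1* and *Ube2v2*, 57.0% and 45.8% for *Ube2q1* and *Ube2q2*, 51.5% and 43.9% for *Usp4* and *Usp15*, and 57.9% and 45.7% for *Usp20* and *Usp33*.

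In each of these pairs the relative richer in G and C was lower, and the poorer one higher, in AMPKβ1-/- BMDMs with vehicle than in WT. *Ube2v1* was at 323, 279 and 274 CPM in WT and at 214, 193 and 210 CPM in AMPKβ1-/-. *Ube2v2* was at 0.214, 0.923 and 0.896 CPM in WT, which rests on 2, 10 and 9 counts, and at 4.19, 3.91 and 3.50 CPM in AMPKβ1-/-, on 46, 60 and 33 counts. Neither gene's groups overlapped, and the change was -0.51 ± 0.08 (SE of the log2 fold change, n = 3 against 3) for *Ube2v1* (edgeR adjusted p = 0.000147) and 2.47 ± 0.34 for *Ube2v2* (edgeR adjusted p = 7.02e-05). *Ube2q1* went from 193 ± 8.51 CPM (SD, n = 3) to 158 ± 4.56 CPM while *Ube2q2* went from 12.2 ± 2.79 to 22.8 ± 0.863 CPM, log2 fold changes of -0.28 and 0.91. *Usp4* went from 235 ± 13.2 to 187 ± 9.29 CPM and *Usp15* from 11.2 ± 2.13 to 29.5 ± 4.47 CPM (-0.33 and 1.39). *Usp20* went from 37.6 ± 3.08 to 25.6 ± 2.19 CPM and *Usp33* from 12.7 ± 2.85 to 27.1 ± 0.749 CPM (-0.56 and 1.08). That all 8 genes passed the edgeR test at an adjusted p below 0.05 follows from how the pairs were chosen and is not a further result. In all 8 the 3 WT and 3 AMPKβ1-/- libraries did not overlap, which the same choice favours. Of the 12 mutually closest pairs of tested members with at least 50% protein identity, the relative with the lower coding GC content had the higher fold change in 10, by a median of 1.20 on the log2 scale. With the GC and length offset it had so in 9, by a median of 0.53. Spearman's rho between the gap in coding GC content and the difference in fold change was 0.58 over the 12 pairs, and 0.10 with the offset. Transcript GC content puts *Usp12* (49.60%) above *Usp46* (42.55%), the reverse of their coding GC content. By a small margin it also reverses *Ube2a* (42.15%) and *Ube2b* (42.19%), and *Usp22* (50.74%) and *Usp27x* (50.76%).

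**Figure D1:**
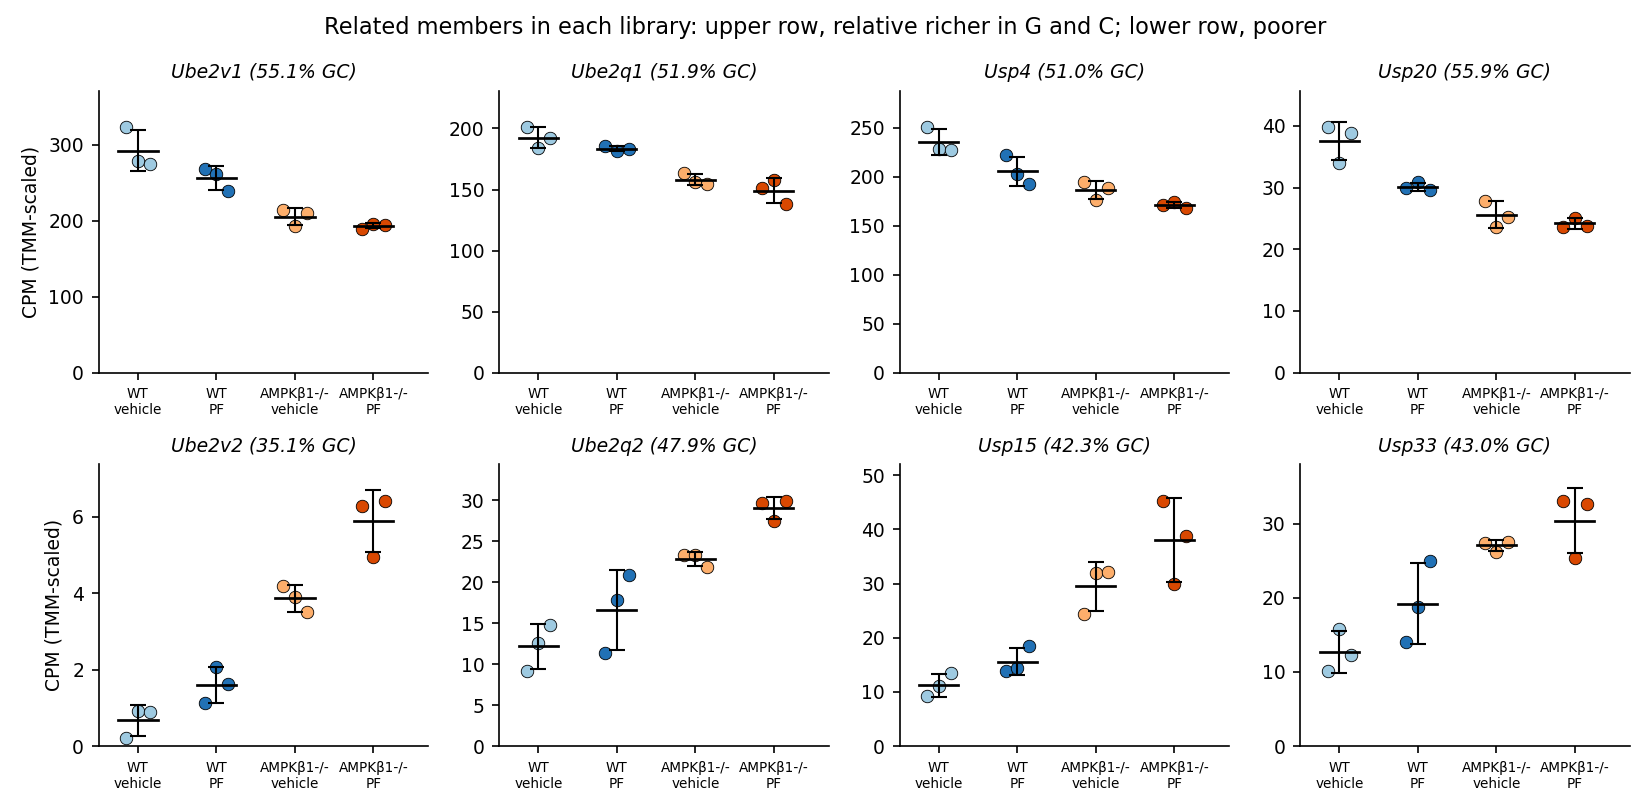
Level of 4 related pairs in each library, in CPM scaled with TMM factors, on linear axes from 0; points are libraries, bars the mean and SD of the 3 libraries of a group, and the GC content is that of the longest annotated transcript. The upper gene of each pair is lower in both AMPKβ1-/- groups than in WT with vehicle, and the lower gene is higher.

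With vehicle, more Usp members were higher in AMPKβ1-/- than in WT than the table at large, while the Ube2 members were divided. In the Usp family 22 members were higher and 8 lower, and in the Ube2 family 9 were higher and 9 lower. Among all genes tested, 29.7% were higher and 30.0% lower. The median log2 fold change was 0.45 over the 43 Usp members and 0.05 over the 32 Ube2 members, against -0.03 over all genes. With library size alone in place of TMM, which moved the median of all genes up by 0.21, the split was 24 higher and 4 lower for Usp and 16 higher and 5 lower for Ube2, against 39.7% of all genes higher and 14.8% lower. The direction followed GC content in both families. Of members below the median GC content of all genes tested, 50.15%, 22 of 28 Usp members were higher and 0 lower, and 9 of 18 Ube2 members were higher and 1, *Ube2l3*, lower. Of those at or above it, 0 were higher and 8 of 15 Usp and 8 of 14 Ube2 members were lower. All genes showed the same division, with 3009 higher and 339 lower of 5386 below the median and 198 higher and 2901 lower of 5394 above it. Across members, Spearman's rho between GC content and log2 fold change was -0.84 over the 43 Usp and -0.77 over the 32 Ube2 members, against -0.76 over 10780 annotated genes. These points share the same 6 libraries.

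The 5 Usp members with the longest annotated transcripts, *Usp34*, *Usp9x*, *Usp15*, *Usp24* and *Usp31*, all rose. *Usp9x*, an X-linked regulator of receptor and polarity signalling, was at 17.7, 28.3 and 20.5 CPM in WT and 68.7, 84.5 and 90.0 CPM in AMPKβ1-/- with vehicle, a 3.64-fold difference (edgeR adjusted p = 6.55e-05). *Usp34*, which acts on Wnt signalling through axin, was at 8.45, 13.7 and 12.6 CPM against 35.1, 44.3 and 39.9 CPM, a 3.42-fold difference. *Usp45*, which acts in DNA repair, was at 3.85, 6.18 and 3.38 CPM against 12.3, 17.8 and 18.6 CPM, a 3.60-fold difference. For these 3 genes the highest WT library was below the lowest AMPKβ1-/- library. *Usp1*, which removes ubiquitin from FANCD2 and PCNA, had a log2 fold change of 1.45 ± 0.19, and *Usp16*, a histone H2A deubiquitinase, one of 1.17. *Usp25*, *Usp31*, *Usp32* and *Usp37* rose by 1.12, 1.14, 1.42 and 1.19, and *Usp24* and *Usp47* by 0.89 and 0.85. With *Usp15* and *Usp33*, these made 13 Usp members past a log2 fold change of 0.8, against 16.1% of all genes in that direction. In the other direction *Usp11*, an X-linked relative of *Usp4* and *Usp15*, was the single called member past -0.8 (-0.81 ± 0.17), where 1.76% of all genes were. *Usp5*, which takes apart unanchored chains, was at 317, 273 and 281 CPM in WT and 211, 187 and 187 CPM in AMPKβ1-/- (log2 fold change -0.57), and *Usp30*, on the mitochondrial outer membrane, went from 39.7 ± 3.81 to 27.6 ± 0.964 CPM (-0.52).

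The counts by role that follow are of small lists, to be read against 29.7% of all genes higher and 30.0% lower. By role, the receptor, NF-κB, TGF-β and Wnt group of USPs had 5 of 7 members higher and 2 lower, and the DNA repair, p53 and cell cycle group had 5 of 7 higher and 1 lower. In the latter, *Usp7*, the deubiquitinase of MDM2 and p53, went from 71.3 ± 5.58 to 103 ± 3.36 CPM (0.52). The endosome, lysosome, mitochondria and autophagy group had 2 of 6 members higher, *Usp8* and *Usp33*, and 2 lower, *Usp20* and *Usp30*. *Usp8*, which acts on endosomal receptors, went from 104 ± 14.8 to 160 ± 28.0 CPM (0.61), while *Usp10*, with a log2 fold change of -0.20, did not pass the test. The chromatin group had 1 of 7 members higher, *Usp16*, and 1 lower, *Usp21*, and *Usp22* of the SAGA complex, at -0.17, did not pass. *Usp14*, the deubiquitinase that docks on the proteasome, went from 30.5 ± 2.65 to 46.3 ± 7.53 CPM (0.60), opposite in sign to *Usp5* of the same list. Median GC content of the USP lists ran from 45.1% for DNA repair, p53 and cell cycle to 54.4% for the endosomal list. With the GC and length offset, where 12.2% of all genes were higher and 23.6% lower, these counts changed. The receptor group then had 4 members higher and 2 lower, with its median log2 fold change at 0.38 where it had been 1.14, and the DNA repair group had 1 higher and 1 lower, with its median at 0.01 where it had been 0.52. The endosomal group had 0 higher and 2 lower, the chromatin group 1 higher and 2 lower, and both proteasome members, *Usp14* and *Usp5*, were lower.

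Among the E2s, the 5 carriers of ubiquitin-like modifiers had 0 members higher and 3 lower, against 29.7% and 30.0% of all genes. *Ube2l6*, the ISG15 carrier, was at 168, 159 and 173 CPM in WT with vehicle and 109, 115 and 123 CPM in AMPKβ1-/- (-0.53 ± 0.13), and *Ube2m*, the NEDD8 carrier, at 180, 132 and 142 against 120, 97.4 and 106 CPM (-0.49 ± 0.11). The groups of both genes did not overlap. The third was *Ube2z*, at -0.28. Of the 8 E2s for initiation and broad chain building, 3 were higher and 1 lower. *Ube2d3*, an E2 that works with many RING ligases, was at 137, 152 and 138 CPM in WT and 165, 208 and 218 CPM in AMPKβ1-/- (0.47 ± 0.10), and *Ube2l3*, which serves HECT and RBR ligases, at 257, 236 and 236 against 199, 209 and 215 CPM (-0.23 ± 0.07, edgeR adjusted p = 0.0142). The call for *Ube2l3* was lost without WT with vehicle library 1 (edgeR adjusted p = 0.0604). In the K48 and endoplasmic reticulum list, *Ube2g1* rose from 8.70 ± 0.600 to 22.3 ± 1.55 CPM (1.36 ± 0.14) and *Ube2g2*, its relative in the degradation of endoplasmic reticulum proteins, fell from 155 ± 11.3 to 108 ± 5.12 CPM (-0.53 ± 0.09). *Ube2n*, the partner of the *Ube2v* pair, had a log2 fold change of 0.17 and did not pass. In the cell cycle list *Ube2s*, which extends chains for the anaphase-promoting complex, was lower (-0.42), while *Ube2c*, which starts them, stood at -0.01 and between 1.28 and 5.50 CPM over all libraries. The 16 proliferation genes listed summed to 141 to 155 CPM in WT with vehicle and 96.2 to 149 CPM in AMPKβ1-/- with vehicle, and their part was not tested. With the GC and length offset, the initiation list had 1 member higher, *Ube2e2*, and 5 lower, with its median log2 fold change at -0.32 where it had been 0.21. The K48 and endoplasmic reticulum list then had 1 of 6 higher, *Ube2g1*, and 4 lower, and the carriers of ubiquitin-like modifiers and the cell cycle list each had 0 higher and 2 lower. Of all genes, 12.2% were higher and 23.6% lower in that fit.

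With the GC and length offset, fewer Usp members were higher, about as many as were lower, and more Ube2 members were lower than higher. The Usp family then had 10 members higher and 9 lower, which is 23.3% and 20.9% of those tested, against 12.2% of all genes higher and 23.6% lower. The Ube2 family had 4 higher and 15 lower, or 12.5% and 46.9%. The medians were 0.05 for Usp and -0.17 for Ube2, with -0.05 over all genes. Spearman's rho between GC content and fold change was -0.36 over the Usp and 0.40 over the Ube2 members, against -0.04 over all genes. The offset thus took the trend out over all genes but not within the families. Of the 18 Ube2 members below 50.15% GC content, 3 were higher and 10 lower, and of the 14 others 1 and 5. Calls that held in the same direction were, among those higher, 10 of 22 Usp and 3 of 9 Ube2 members, and among those lower, 5 of 8 Usp and 6 of 9 Ube2 members. *Usp1* (0.79 ± 0.14), *Ube2q2* (0.76 ± 0.16), *Usp16* (0.57), *Usp25* (0.53) and *Usp34* (0.45) stayed higher, and *Usp9x* stayed higher at 0.38 ± 0.09, where it had stood at 1.86. *Usp11* (-0.70 ± 0.16), *Usp20* (-0.40), *Ube2l6* (-0.39), *Usp30* (-0.36), *Usp5* (-0.27), *Usp4* (-0.25), *Ube2g2* (-0.21) and *Ube2v1* (-0.17) stayed lower. *Usp14*, *Ube2d3*, *Ube2a* and *Ube2b* passed the test in the opposite direction, at -0.73, -0.74, -0.45 and -0.30, and *Ube2k* and *Ube2n*, which had not passed, did so at -1.12 and -0.95. *Ube2v2* (0.85, edgeR adjusted p = 0.0579), *Ube2q1* (-0.12), *Usp15* (0.16) and *Usp33* (0.24) no longer passed. In none of the pairs shown by sequence did both members pass with the offset. Which of the 2 fits is nearer to the RNA content of the cells was not tested.

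**Figure D2:**
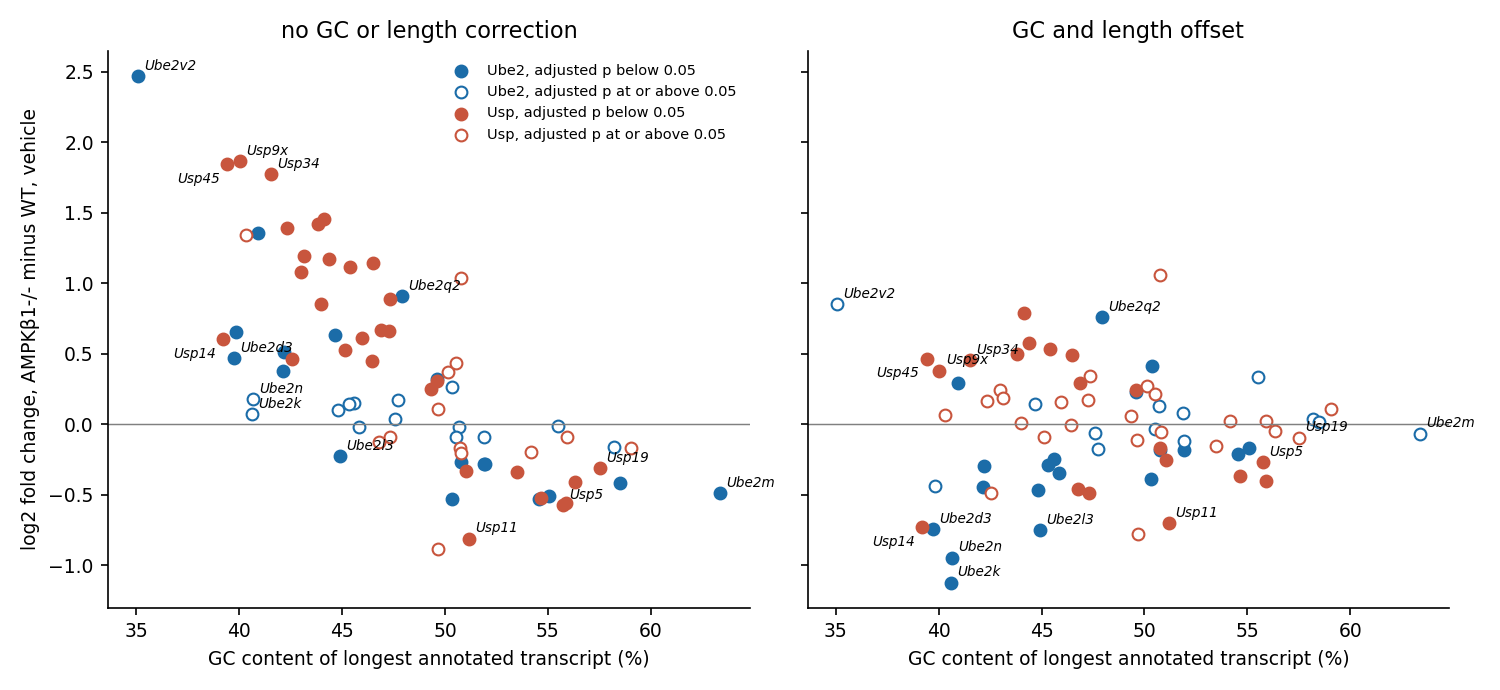
Log2 fold change of the 75 tested members in AMPKβ1-/- against WT with vehicle, plotted on the GC content in percent of the longest annotated transcript, without a correction (left) and with the GC and length offset (right); each point is a gene, filled where adjusted p was below 0.05. On the left the values tend to fall as GC content rises. *Ube2v2*, lowest in GC content, is at 2.47 and *Ube2m*, highest in it, at -0.49, while *Usp11*, between them, is at -0.81. On the right *Usp14*, *Ube2d3*, *Ube2n* and *Ube2k* lie below 0.

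The comparison of genotypes with PF-06409577, which uses the other 6 libraries, had 18 Usp members higher and 4 lower and 4 Ube2 members higher and 7 lower, against 24.1% and 22.9% of all genes. No member was called in opposite directions in the 2 genotype comparisons. In the Usp family 17 members were higher in both, 17 of 22 with vehicle and 17 of 18 with PF-06409577, and 4 were lower in both, of 8 and of 4. In the Ube2 family 3 were higher in both, of 9 and of 4, and 7 lower in both, of 9 and of 7. This overlap was not counted over all genes, so it is not shown to be particular to the members. The GC slope separated the genotypes in both comparisons. *Usp9x* was at 25.3, 32.7 and 48.3 CPM in WT and 120, 89.8 and 118 CPM in AMPKβ1-/- with PF-06409577, and *Usp34* at 11.1, 13.7 and 20.8 against 59.7, 44.9 and 58.9 CPM. Neither overlapped, and the log2 fold changes were 1.62 ± 0.22 and 1.84 ± 0.21. Within both WT groups, these 2 genes were lowest in library 1, the library with the steepest GC slope of its group. *Ube2l6* was at 196, 161 and 141 against 112, 121 and 85.9 CPM (-0.64 ± 0.13), and *Usp11* went from 7.98 ± 0.607 to 4.66 ± 0.487 CPM (-0.77). *Usp53*, a family member found at cell junctions, had a log2 fold change of 1.70 (edgeR adjusted p = 0.0129), at a mean of 1.10 CPM over the libraries. *Ube2e2*, an E2 of the initiation list, had one of 0.54. With the offset the counts were 7 higher and 9 lower for Usp and 2 higher and 15 lower for Ube2, against 15.5% and 23.2% of all genes. *Usp34* (0.64), *Usp1* (0.65), *Usp16* (0.74), *Ube2q2* (0.77) and *Ube2e2* (0.77) were still higher, *Usp11* (-0.69) and *Ube2l6* (-0.42) still lower, and *Usp14* was lower at -1.13 ± 0.09 (edgeR adjusted p = 4.00e-08), where it had stood at 0.10 without the offset. *Usp9x* (0.20 ± 0.08, edgeR adjusted p = 0.0522) and *Usp53* (0.56, edgeR adjusted p = 0.329) no longer passed the test with it.

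As a summed level, the members of the USP family gained on the E2s in AMPKβ1-/- BMDMs. With vehicle, the Usp members summed to 1863, 1854 and 1976 CPM in WT and to 2113, 2099 and 2090 CPM in AMPKβ1-/-. The Ube2 members summed to 2617, 2436 and 2453 CPM in WT and to 2226, 2267 and 2341 CPM in AMPKβ1-/-. The ratio of the Usp to the Ube2 sum was 0.759 ± 0.0469 (SD, n = 3) in WT with vehicle, 0.726 ± 0.0271 in WT with PF-06409577, 0.923 ± 0.0283 in AMPKβ1-/- with vehicle and 0.957 ± 0.0563 in AMPKβ1-/- with PF-06409577. The 6 WT libraries lay between 0.708 and 0.806 and the 6 AMPKβ1-/- libraries between 0.892 and 0.992. Computed from values adjusted with the offset, the ratio still separated the genotypes, at 0.742 ± 0.0431 and 0.754 ± 0.0223 in WT against 0.885 ± 0.0105 and 0.909 ± 0.0332 in AMPKβ1-/-. The part that moved was then the Ube2 sum, which went from 2704 ± 192 to 2209 ± 38.9 CPM with vehicle, while the Usp sum was 2001 ± 35.5 and 1955 ± 41.5 CPM. No test was made of these sums. With the offset, the fold changes of the Ube2 members with vehicle still related to GC content, at a Spearman's rho of 0.40. The part of that relation in the fall of the Ube2 sum was not tested. In these whole-culture libraries, fewer cells of a kind and less RNA per cell cannot be told apart.

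**Figure D3:**
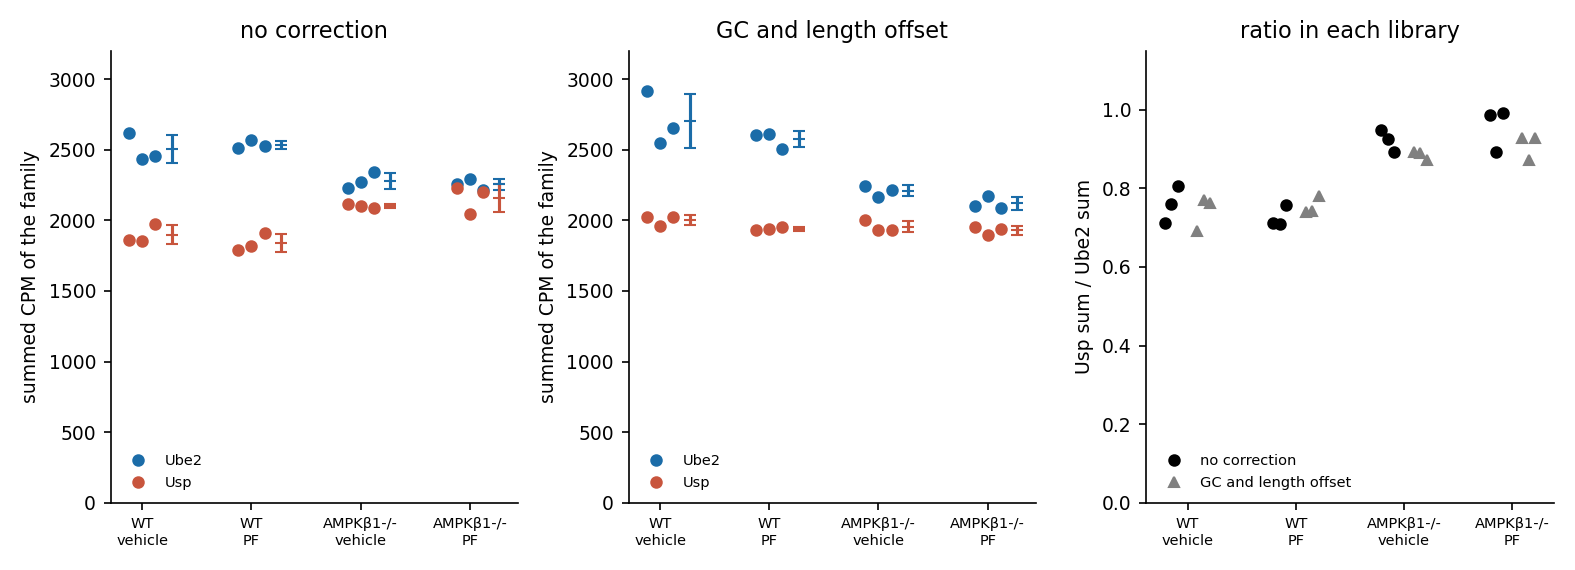
Summed CPM of each family in each library without a correction (left) and with the GC and length offset (middle), and the ratio of the sums (right); points are libraries (circles uncorrected and triangles with the offset in the ratio), and bars in the left and middle panels are the mean and SD of 3, on axes from 0. On both scales the ratio is at least 0.871 in every AMPKβ1-/- library and at most 0.806 in every WT library.

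In WT BMDMs, 7 Ube2 members were called higher with PF-06409577 without a correction, and none of these 7 with the GC and length offset. Of the 32 Ube2 members 7 were higher and 0 lower without the offset, and of the 43 Usp members 2 were higher and 3 lower, against 6.99% of all genes higher and 8.95% lower. *Ube2d3* was at 137, 152 and 138 CPM with vehicle and 172, 189 and 202 CPM with PF-06409577 (0.40 ± 0.10, edgeR adjusted p = 0.0173). *Ube2g1* was at 8.13, 9.32 and 8.66 against 10.9, 11.3 and 15.1 CPM (0.52 ± 0.14), and *Ube2e1*, of the initiation list, at 10.2, 15.5 and 13.9 against 17.6, 19.9 and 23.3 CPM (0.62 ± 0.18). For these 3 genes all libraries with PF-06409577 were above all with vehicle. *Ube2b*, an E2 of post-replication repair that modifies PCNA and histone H2B, was at 32.7, 36.3 and 31.1 against 34.3, 46.7 and 51.6 CPM (0.41), with overlapping groups. *Ube2v2* had the largest change, 1.19 ± 0.39, at an edgeR adjusted p of 0.0497, and was the one member past 0.8. The other 2, *Ube2a*, the close relative of *Ube2b*, and *Ube2e3*, rose by 0.40 and 0.32 and are named after their values were seen. The K63 partner *Ube2n* (0.13) and the carriers *Ube2m* (-0.12) and *Ube2l3* (-0.01) did not pass the test. With the offset *Ube2d3*, *Ube2a* and *Ube2b* stood at -0.08, -0.09 and -0.08.

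Among the USPs, *Usp14* was at 28.9, 33.6 and 29.2 CPM with vehicle and 38.5, 44.7 and 49.7 CPM with PF-06409577 in WT BMDMs, without overlap (0.54 ± 0.13, edgeR adjusted p = 0.0141). *Usp47*, which stabilises a DNA repair polymerase, had a log2 fold change of 0.48 and overlapping groups. *Usp19*, anchored in the endoplasmic reticulum, was at 259, 240 and 296 against 222, 199 and 202 CPM (-0.35 ± 0.09), and *Usp35*, linked to mitophagy, at 32.6, 27.1 and 33.7 against 23.8, 21.9 and 19.2 CPM (-0.53 ± 0.14). Both were below every vehicle library, as was *Usp20* at 29.9, 30.9 and 29.5 CPM (-0.32). *Usp9x* (0.67), *Usp15* (0.47), *Usp30* (-0.26), *Usp22* (-0.23), *Usp8* (0.22), *Usp7* (0.14) and *Usp10* (-0.11) did not pass. The 9 members that rose all lay below the median GC content of tested genes and the 3 that fell above it. Among all genes, 689 of those that rose lay below it and 66 above, and 41 of those that fell lay below it and 924 above. With the offset, 0 Usp members were called and 1 Ube2 member, *Ube2l3* (-0.33 ± 0.08), was lower, against 2.68% of all genes higher and 5.14% lower. The calls also rested on single libraries. The share of all genes called without each library is not given. The counts that follow are therefore not shown to be particular to the members. The Ube2 count was 0 without WT with vehicle library 1 or 3 and without WT with PF-06409577 library 2 or 3, and 12 without WT with PF-06409577 library 1. The Usp count was 0 without WT with vehicle library 3 or WT with PF-06409577 library 2 or 3, 1 without vehicle library 1, 12 without vehicle library 2 and 16 without WT with PF-06409577 library 1, and it was 3 without any 1 of the AMPKβ1-/- libraries with PF-06409577, which enter the shared estimate of spread.

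**Figure D4:**
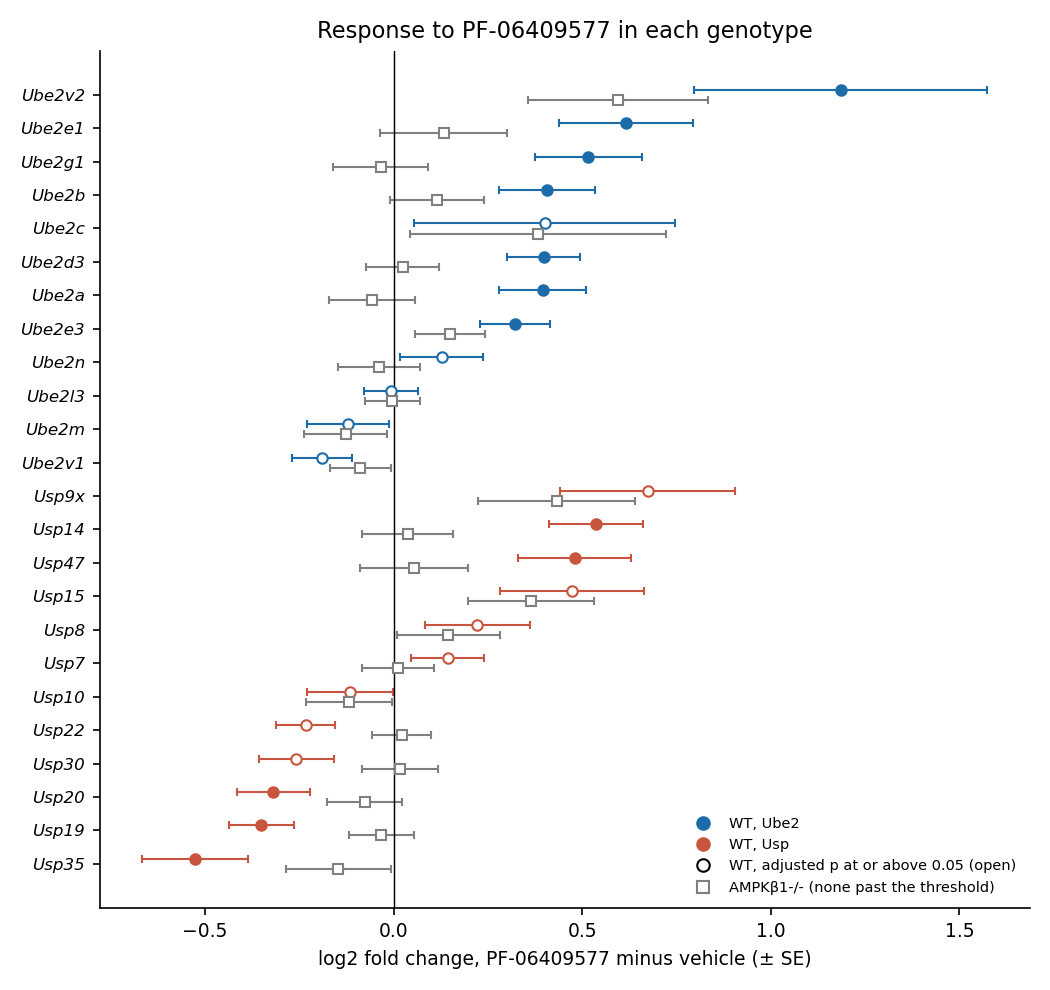
Log2 fold change with PF-06409577 against vehicle, with its SE, in WT (circles, filled where adjusted p was below 0.05) and in AMPKβ1-/- BMDMs (grey squares), for the members called in WT and those named for their role. In WT the values run from -0.53 for *Usp35* to 1.19 for *Ube2v2*, and in AMPKβ1-/- no square passes the test.

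In AMPKβ1-/- BMDMs no member of either family was called with PF-06409577 by edgeR, DESeq2 or limma-voom, against 0.0554% of all genes. At an unadjusted edgeR p below 0.05 there were 1 of 32 Ube2 and 2 of 43 Usp members. A share of 0.05 passes such a cut on average where nothing changes. The log2 fold changes ran from -0.13 to 0.59 over the Ube2 members and from -0.21 to 0.68 over the Usp members, with both medians at -0.01. The smallest p belonged to *Ube2v2* (0.59 ± 0.24, edgeR adjusted p = 0.867) and *Usp34* (0.45 ± 0.20, edgeR adjusted p = 0.962). *Ube2d3* was at 165, 208 and 218 CPM with vehicle and 202, 203 and 196 CPM with PF-06409577, and *Usp14* at 37.8, 52.2 and 49.0 against 49.9, 46.0 and 47.0 CPM. The groups of both genes overlapped.

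Whether the response differed between genotypes was tested as a difference of the 2 responses. No member of either family was called by any of the 3 tools, against 0.416% of all genes. At an unadjusted edgeR p below 0.05, which a share of 0.05 passes on average where nothing changes, there were 3 members of each family. The E2 and the USP with the smallest p were *Ube2g1*, whose response was larger in WT by 0.55 ± 0.19 (edgeR adjusted p = 0.213), and *Usp14*, larger in WT by 0.50 ± 0.17 (edgeR adjusted p = 0.221). The calls for PF-06409577 in WT and their absence in AMPKβ1-/- are thus not shown to be a difference between the genotypes for any member.

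Levels were ranked on the scale of mean CPM per kilobase of the longest annotated transcript, averaged over the 12 libraries. The Ube2 members with the highest levels were *Ube2v1* (116), *Ube2l6* (88.9) and *Ube2m* (84.3), and the Usp members *Usp5* (71.5), *Usp4* (54.6) and *Usp19* (46.7). The order was not the same in every group: in AMPKβ1-/- with PF-06409577 the mean of *Ube2l3* stood above those of *Ube2l6* and *Ube2m*. The median was 16.5 over the Ube2 and 5.22 over the Usp members, against 8.83 over all genes. Median GC content was 47.8% for the Ube2 and 47.3% for the Usp transcripts, and median length 2617.5 and 4745 bases. *Ube2v2*, the other partner of *Ube2n*, had the lowest such level of the Ube2 members tested, 0.714. The members that did not pass the filter were *Ube2cbp*, with 0 to 4 counts per library, *Usp17la*, with 0 or 1, and the Y-linked *Usp9y*. The counts of *Usp9y* were 0 in every WT library and 0 to 3 in the AMPKβ1-/- libraries. *Usp27x* was listed at 0 counts in WT with vehicle library 2 and at 20 to 56 elsewhere. *Usp50*, with 8 to 26 counts, lies antisense to part of *Usp8*, and *Ube2d-ps* is a pseudogene related to the *Ube2d* genes, so the counts of *Usp50*, *Usp8* and the *Ube2d* genes are uncertain. By symbol, *Usp6nl* is a member, but it encodes a Rab GTPase-activating protein and not a deubiquitinase. It is among the 22 Usp members called higher in AMPKβ1-/- with vehicle.

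Genes of the pathway outside the rule were followed by list, and those named here were chosen after their values were seen. The counts are to be read against all genes tested with vehicle, of which 29.7% were higher in AMPKβ1-/- and 30.0% lower. With the offset these shares were 12.2% and 23.6%. Of 12 ubiquitin and E1 genes, 5 were higher and 6 lower in AMPKβ1-/- with vehicle. *Uba1*, the main ubiquitin E1, was lower (-0.52, and -0.42 with the offset), as was the polyubiquitin gene *Ubb* (-0.67, and -0.34), while *Nae1*, part of the NEDD8 E1, was higher (1.71, and 0.71). In WT with PF-06409577, *Uba1* fell by 0.37 on the log2 scale and passed also with the offset (-0.29, edgeR adjusted p = 0.0148). Of 33 deubiquitinases outside the USP family, 16 were higher and 8 lower in AMPKβ1-/- with vehicle, and 6 and 7 with the offset. *Mysm1*, a histone H2A deubiquitinase, was higher in both fits (1.95 and 0.58), and *Brcc3*, a K63-specific deubiquitinase, was higher without the offset (0.59) and lower with it (-1.03). Of 8 further proteins with the E2 fold, 5 were higher and 2 lower, and 1 and 2 with the offset.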

How the data were processed

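RNA was extracted with TRIzol and RNeasy columns, libraries were made with the NEBNext Ultra II Directional kit, and paired-end reads were trimmed with Trim Galore and quantified with Salmon by the authors, who tested them with DESeq2. The versions and the genome build are not given in the sources used here. The authors deposited 1 table of Salmon's estimated counts per gene symbol as whole numbers, which were used as they stand. Totals ran from 8935609 to 14358180 per library, which sets the precision, and limits from counts cover counting error only. No pair of replicates was identical.

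Counts were fitted with edgeR 4.0.16 (R 4.3.3) over all 12 libraries, with TMM scaling, filterByExpr, group means and the robust quasi-likelihood test. Of 12960 genes 10822 passed the filter. Benjamini-Hochberg adjustment covered all tested genes, and a member was called at an adjusted p below 0.05. The 5 comparisons were PF-06409577 against vehicle in each genotype, AMPKβ1-/- against WT with vehicle and with PF-06409577, and the difference of the 2 responses. Comparisons that share any group are not independent, and all 5 use the shared estimate of spread. GC content and length came from the longest basic GENCODE M21 transcript (GRCm38), matched by symbol for 10780 tested genes. The offset was each library's natural spline with 5 degrees of freedom on GC content and on log2 length. It assumes that the trend is technical.

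DESeq2 1.42.0, limma-voom 3.58.1, other scalings and filters, the groups alone and leaving out each library were alternatives, and a replicate block by column number was added after the data were seen. The procedure was tested on simulated data. Named members were up to 5 per family, direction and comparison with the largest called change, the smallest p per family, those past a log2 fold change of 0.8, the 3 most abundant per family, those not tested, and 14 fixed for their roles. Some genes are not reported here. The members and lists were chosen with earlier results of these data known.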

Additional observations from a re-analysis of the deposited data

How the results depend on the processing

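Leaving out 1 library in turn, the Ube2 count ranged from 0 to 12 and the Usp count from 0 to 16 for PF-06409577 in WT, from 14 to 19 and 25 to 32 for genotype with vehicle, and from 10 to 12 and 15 to 26 for genotype with PF-06409577, and it was 0 in every such fit for PF-06409577 in AMPKβ1-/- and for the difference in response. For PF-06409577 in WT, the Ube2 count of 7 became 1 with the groups compared alone and with the log2 limit of 0.8. It also became 1 with the GC and length offset and with a GC offset alone. With the GC and length offset that 1 was *Ube2l3*, called lower, and none of the 7 was called. The Usp count of 5 became 8 with DESeq2, 1 with the groups alone and 0 with either offset or the log2 limit. For genotype with vehicle, the log2 limit left 3 Ube2 and 14 Usp members, and the GC and length offset 19 Usp members against 30. For genotype with PF-06409577, the Ube2 count of 11 became 17 with the GC and length offset and 20 with the GC offset. The log2 limit left 2 Ube2 and 9 Usp members. In this paragraph the shares of all genes called are not given. A change in these counts is therefore not shown to be particular to the members.

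Among the members named for a called change or for the smallest p, signs turned with the offsets and in none of the other alternatives. With the GC and length offset and with the GC offset, *Ube2b* stood at -0.078 and -0.027 and *Ube2d3* at -0.076 and -0.057 for PF-06409577 in WT, *Ube2v2* at -0.084 and -0.10 for PF-06409577 in AMPKβ1-/-, *Ube2d3* at -0.74 and -0.81, *Ube2w* at -0.44 and -0.59, *Usp14* at -0.73 and -0.72 and *Usp7* at -0.090 and -0.057 for genotype with vehicle, and *Ube2g1* at -0.056 and -0.14 and *Ube2v2* at -0.030 and -0.10 for genotype with PF-06409577. With the GC offset alone *Ube2e1* stood at -0.019, and with the GC and length offset *Ube2s* at 0.017, for genotype with vehicle, and *Usp7* at -0.012 with PF-06409577. Of 1721 values for these members under the alternatives, 1524 kept their direction and side of the threshold, 165 lost the call and 32 turned. Members named for their role alone are outside that count, and among them *Usp14* and *Ube2d3* went from 0.10 and 0.10 to -1.13 and -0.96 with the GC and length offset for genotype with PF-06409577, past the threshold. In genotype with PF-06409577, the call of *Ube2l3* was lost in 5 and that of *Usp20* in 3 of 12 fits without 1 library. The offsets remove each library's GC trend over all genes by construction, and whether that trend is technical was not tested. With 3 libraries a group, and 2 to 10 counts for *Ube2v2* in WT with vehicle, low members were the least precise.

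The columns of the table carry a number after the group name, while the sample labels share no replicate number between groups and do not tie libraries to each other. A fit with that column number as a replicate block was added after the data were seen. The shares of all genes called with this block are not given, so counts with it are not shown to be particular to the members. Deviations from the group means of libraries with the same number correlated at -0.18 to 0.32 across genes, and not every pair was above 0.1, so the numbers were not taken as pairing the libraries. With the replicate block, the Ube2 counts were 7, 18 and 11 and the Usp counts 6, 32 and 22 for PF-06409577 in WT, genotype with vehicle and genotype with PF-06409577, and 0 in both families for PF-06409577 in AMPKβ1-/- and for the difference in response. With the replicate block and the GC and length offset together, the Ube2 counts were 1, 17 and 15 and the Usp counts 0, 18 and 16 in the same order. In that fit *Ube2b* stood at -0.077 and *Ube2d3* at -0.076 for PF-06409577 in WT, *Ube2v2* at -0.076 for PF-06409577 in AMPKβ1-/-, *Ube2d3* at -0.74, *Ube2s* at 0.018, *Ube2w* at -0.43, *Usp14* at -0.73 and *Usp7* at -0.093 for genotype with vehicle, and *Ube2g1* at -0.058, *Ube2v2* at -0.030 and *Usp7* at -0.013 for genotype with PF-06409577.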
